A study of Mus musculus with 4 samples.

Results

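The genes of the fibroblast growth factor (FGF) pathway were examined in bulk RNA sequencing of the E15 mouse cortex. They were chosen by name from the protein-coding genes of the deposited table, as the FGF ligands (Fgf followed by a number), the FGF receptors (Fgfr1 to Fgfr4 and Fgfrl1), the Sprouty and Spred inhibitors, the phosphatase Dusp6 and the ETS transcription factors Etv1, Etv4 and Etv5. This gave 33 genes of 26433 in the table. The rule used names and no measured level, but it was chosen with earlier results of these data known. The cKI f/+ mice carry Flag-tagged human SERPINA3 behind a CAG promoter and a loxP-flanked stop cassette in the Rosa26 locus, and Nestin-Cre removes the stop in neural progenitors and their progeny. The study describes the controls as WT littermates, and the labels give C57BL/6 as the strain of both groups. Knock-in founders were bred with B6D2F2 mice before the cross to Nestin-Cre mice. The cKI f/+ group held 2 libraries, KI2 and KI3, and the WT group held 2, WT1 and WT3. Whether the WT littermates carry Cre or the floxed allele is not given in the sources used here. The human transgene was not analysed here.

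FGFs are signaling proteins that bind receptor tyrosine kinases together with heparan sulfate and switch on the Ras-ERK cascade in the receiving cell. ERK in turn raises ETS factors of the Pea3 group and a set of brakes, among them Sprouty and Spred proteins and the ERK phosphatase Dusp6, so that the level of these genes is commonly read as a measure of pathway activity. In the embryonic forebrain, FGFs from the rostral midline pattern cortical areas, and FGF receptors on radial glia support their proliferation. The FGF homologous factors share the FGF fold but stay inside the cell, where they bind voltage-gated sodium channels.

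The 4 libraries held between 17423512 and 18119444 reads counted on genes, and the 33 genes took between 0.0863% and 0.0904% of them. Levels are given as CPM, the read count of a gene per 1000000 reads counted in its library, and between genes only as CPM per kilobase of annotated exon. A floor of 3 counts was used, which equals 0.166 to 0.172 CPM and covers counting error only. The label names cortex, and the study's methods name telencephalic tissue. The cortical neuron gene Neurod6 lay between 963.9 and 1124 CPM, which shows cortical RNA but not that the tissue was cortex alone. Of 4 diencephalon genes, Gbx2 and Sim1 had at most 1 count in any library, whereas Tcf7l2 had 140 to 207 counts and Lhx9 had 399 to 619. Sex-linked genes separated the groups completely. Xist lay at 745.5 and 655.8 CPM in cKI f/+ mice and at 0.284 and 0.287 CPM in WT mice, and Ddx3y, Kdm5d, Eif2s3y and Uty had at most 1 count in a cKI f/+ library, so genotype and embryo sex cannot be told apart in any comparison here. Markers of midline tissue also differed between the groups, with the highest choroid plexus and hem sums in KI3. The summed level of 6 choroid plexus genes was 2.44 CPM in WT1 and 5.05 in WT3, against 10.7 in KI2 and 70.8 in KI3, and 5 of the 6 could be tested, all with positive log2 fold changes and 3 at an unadjusted p under 0.05 in edgeR's test. For 5 genes of the cortical hem it was 24.0 CPM in WT1 and 37.9 in WT3, against 38.1 in KI2 and 54.8 in KI3. The 6 meninges genes summed to 6.02 and 7.46 CPM in WT mice and to at least 13.1 CPM in both cKI f/+ libraries, and the 6 blood genes to 491.4 and 522.2 CPM in WT mice and to 489.6 and 366.0 CPM in cKI f/+ mice. All 5 hem genes had positive log2 fold changes, 3 of them at an unadjusted p under 0.05 in edgeR's test. Of the 4 tested meninges genes, 3 were positive, all at such a p, and 1 was negative. All 6 blood genes were negative, 3 of them at such a p. None of the genes in these lists was called. The part of these tissues in the results was not tested.

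Sequences before start sites of Dusp6 and Etv5, genes of the feedback loop, are shown because the loop runs from ERK through ETS factors to such promoters. Dusp6 and Etv5 are read-outs of ERK activity. Fgfrl1, grouped here with the receptors, is shown for the letters CCGGAA in its window. Capitals mark CCGGAA, a form of the ETS motif, on either strand. The shorter ETS core GGAA, which also occurs in the printed Dusp6 and Etv5 windows, was not searched for. Sequences and positions are those of RefSeq for GRCm38.p6, and each is the 250 bases before a start. The printed windows of Etv5 and Fgfrl1 lie inside the annotated span of the gene, before an internal start. Another Etv5 window, from 22439571 to 22439820 at the outer end of the gene, has 149 exonic bases and is not printed. These 3 windows hold no annotated exon (GENCODE M21).
Dusp6, chr10:99262981-99263230, plus strand: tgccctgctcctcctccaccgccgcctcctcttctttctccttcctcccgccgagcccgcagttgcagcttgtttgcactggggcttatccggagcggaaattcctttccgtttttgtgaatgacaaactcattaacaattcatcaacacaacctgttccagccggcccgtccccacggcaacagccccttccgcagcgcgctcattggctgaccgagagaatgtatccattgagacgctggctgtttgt
Etv5, chr16:22438369-22438618, minus strand: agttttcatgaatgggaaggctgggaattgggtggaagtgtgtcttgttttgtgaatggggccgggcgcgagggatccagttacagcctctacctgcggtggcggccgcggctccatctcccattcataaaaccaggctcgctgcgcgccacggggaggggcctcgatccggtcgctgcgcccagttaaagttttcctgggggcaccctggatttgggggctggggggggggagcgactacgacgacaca
Fgfrl1, chr5:108693979-108694228, plus strand: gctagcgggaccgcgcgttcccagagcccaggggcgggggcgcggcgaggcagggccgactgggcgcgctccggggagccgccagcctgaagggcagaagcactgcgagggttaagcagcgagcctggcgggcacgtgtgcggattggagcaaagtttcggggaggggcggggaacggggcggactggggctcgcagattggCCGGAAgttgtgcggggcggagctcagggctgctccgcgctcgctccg

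Windows of 250 bases were at hand for 26 of the 33 genes, 35 windows in all. The other genes are Fgf1, Fgf8, Fgf15, Fgf17, Fgfr1, Spry4 and Etv4. Of the 35 windows, 15 overlap an annotated exon, and those of Fgf2, Spry1, Fgfr3 and Fgf14 are exonic throughout. The letters CCGGAA or the reverse complement TTCCGG were found in 4 of the 35 windows (11.4%), against 12% of 32851 windows before the starts of all genes. These belong to Fgf5, Fgfrl1, Fgfr4 and Fgf12, and in the last pair 178 and 202 of the 250 bases are exonic and the motif lies outside the longest exon-free stretch. The AP-1 motif TGANTCA, which reads the same on both strands, was found in 2 windows (5.71%), of Fgf12 and Fgf13, against 6.75% of all windows. Both of these windows overlap exons in part. Dusp6, Etv1, Etv5, Spry1, Spry2 and Spred1 to Spred3 held neither run of letters in these windows.

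Between genes, the receptors were the most abundant role. Summed per kilobase, the 5 receptors reached 58.5 CPM per kilobase over the 4 libraries, the 6 Sprouty and Spred genes 37.9, the 4 FGF homologous factors 36.8 and the 3 ETS factors 18.0. Dusp6 reached 6.92 CPM per kilobase, and the 11 listed paracrine ligands together reached 6.19. The 3 endocrine ligands, Fgf15, Fgf21 and Fgf23, which act at a distance in the adult, together stood at 0.658 CPM per kilobase. The ligands were therefore measured at a much lower level than the receptors in the same tissue. Of the 33 genes, 6 were above 10 CPM per kilobase, namely Fgfr3, Fgfr1, Fgf11, Fgf13, Etv5 and Spred2, and 18 were under 1.

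**Figure D1:**
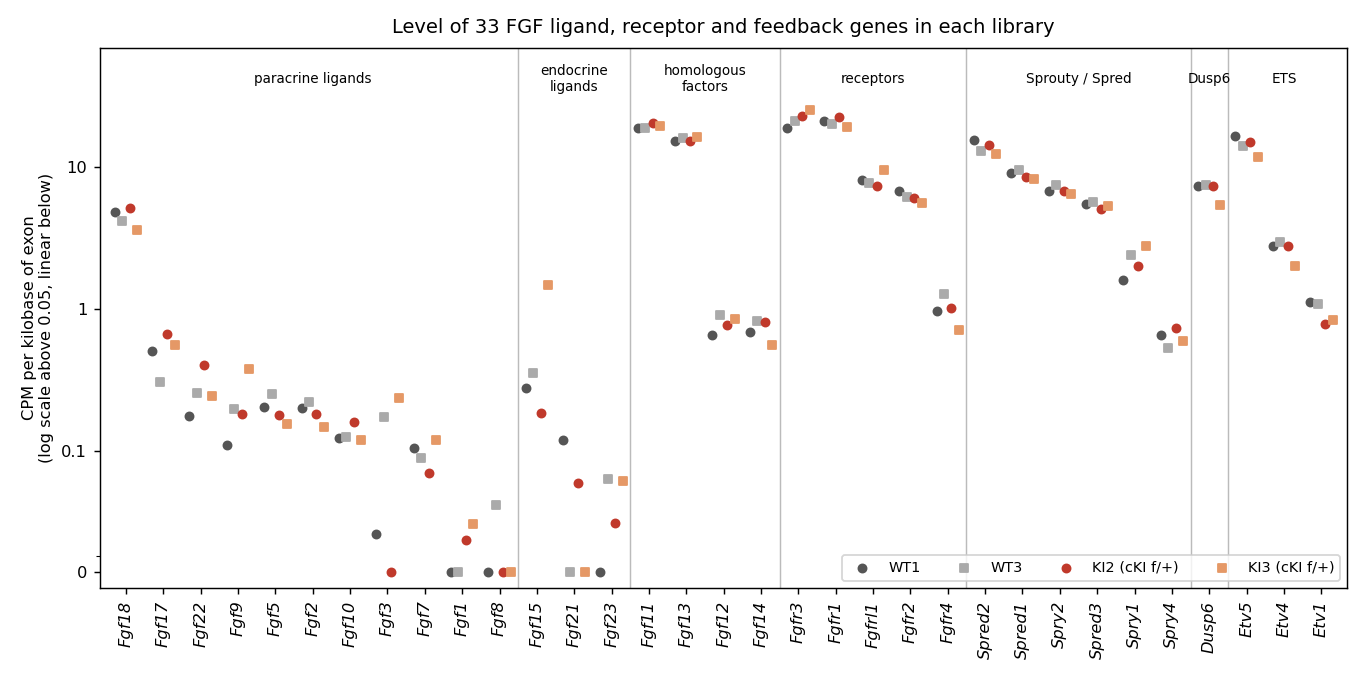
CPM per kilobase of exon (vertical axis, logarithmic above 0.05 and linear below) of each of the 33 genes, grouped by role, with 1 point for each of the 4 libraries. Fgfr3, Fgfr1, Fgf11, Fgf13, Etv5 and Spred2 lie above 10 on average, and apart from Fgf18 the paracrine ligands lie under 1 CPM per kilobase.

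Placed in order of their level, Fgfr3 (22.2 ± 2.75 CPM per kilobase, SD over the 4 libraries), Fgfr1 (20.8 ± 1.35) and Fgf11 (19.5 ± 0.799) led the list, and the ranges of neighbours overlapped. Fgf13 followed at 15.8 ± 0.523 CPM per kilobase and lay below Fgf11 in every library. Only 4 of the 32 pairs of neighbours in the order were separated in this way, the others being Spred2 over Spred1, Fgf18 over Etv4 and Spry1 over Fgfr4. The length used for each gene matters for this order. With the longest transcript in place of all exons, Fgfr1 came to 40.8, Fgfr3 to 37.5, Fgf13 to 25.4 and Fgfr2 to 14.4 CPM per kilobase, and Fgf11 stayed at 19.5. For Fgfr2 the full exon set includes a transcript that runs on into Ctbp2, which shares 314 bases of exon with it.

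Most secreted ligands were close to the floor. Of the 11 paracrine ligands, 10 had under 50 counts in every library. The exception was Fgf18, a ligand of the developing skeleton and cortex, with 5.79 CPM in WT1, 4.94 in WT3, 6.09 in KI2 and 4.30 in KI3. Fgf8, the ligand of the rostral patterning center, had 1 count in WT3 and 0 counts in the other libraries. At 0 counts the floor of 3 counts applies, so Fgf8 above about 0.17 CPM was not seen in this tissue. Fgf17, its close relative in the same center, was at 0.852 CPM in WT1, 0.517 in WT3, 1.13 in KI2 and 0.938 in KI3. Both cKI f/+ values of Fgf17 lay above both WT values, at 20 and 17 counts against 15 and 9. The log2 fold changes in cKI f/+ mice over WT mice were -0.04 for Fgf18 (95% interval -0.56 to 0.48) and 0.59 for Fgf17 (-0.40 to 1.59). Other genes of the rostral center did not share one sign. Six3 had 31 and 112 counts in WT mice and 5 and 34 in cKI f/+ mice, with a log2 fold change of -1.90 (unadjusted p of 0.0248 and adjusted p of 0.969 in edgeR's test). Shisa2 had a log2 fold change of -0.21 (unadjusted p of 0.0401 in edgeR's test), Sp8 of -0.18 and Zic4 of 0.51. The part of this tissue in the value of Fgf17 was not tested.

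Fgf2, the best known mitogen of cortical progenitors, was at 1.36 CPM in WT1 and 1.49 in WT3, and at 1.24 in KI2 and 0.993 in KI3. Fgf9, which neurons and glia release, was at 0.511 CPM in WT1, 0.918 in WT3, 0.846 in KI2 and 1.77 in KI3. The KI3 value of Fgf9 was the highest of the 4, and KI2 lay between the WT libraries. Without KI3 its log2 fold change was 0.25. Fgf10, which early radial glia express as they mature, stood at 10 counts in KI3, WT1 and WT3 and at 13 in KI2. Fgf22, an organizer of synapses, had 7 and 10 counts in WT and 16 and 10 in cKI f/+ mice. The log2 fold changes were -0.35 for Fgf2 (95% interval -1.15 to 0.46), 0.87 for Fgf9 (-0.24 to 1.99), 0.17 for Fgf10 (-0.90 to 1.25) and 0.58 for Fgf22 (-0.58 to 1.74). All of these intervals are wide and include 0. The exons of Fgf2 and Fgf22 overlap genes on the opposite strand, Nudt6 and Rnf126, and the strand setting of the counting is not given in the sources used here. Fgf5 had between 7 and 11 counts per library and Fgf7 between 4 and 7. Fgf1 had 2 and 3 counts in cKI f/+ libraries and 0 in both WT libraries, at or under the floor in both groups. Fgf21 had at most 2 counts and Fgf23 at most 2. Fgf4, Fgf6, Fgf16, Fgf20 and Spry3 were not analysed here.

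Fgf15, an endocrine ligand that progenitors of the embryonic brain also express, had the largest standard error of the 26 tested genes. In raw reads it had 15 counts in WT1 (exact 95% Poisson interval 8.40 to 24.7, for counting error only), 19 in WT3 (11.4 to 29.7), 10 in KI2 (4.80 to 18.4) and 82 in KI3 (65.2 to 101.8). In CPM this was 0.852 and 1.09 in WT mice and 0.564 and 4.53 in cKI f/+ mice. KI3 was therefore above both WT libraries and KI2 below both. The log2 fold change was 1.39 (standard error 0.74, 95% interval -0.26 to 3.05, adjusted p of 0.969 in edgeR's quasi-likelihood test). Without KI3 it was -0.77, and without KI2 it was 2.20 with an adjusted p of 0.0112 in edgeR's test, so both its direction and its call depended on which cKI f/+ library was kept. Fgf3, a ligand that the rostral midline also makes, lies near it on chromosome 7, from 144838083 to 144844436 against 144896531 to 144900953 for Fgf15. Fgf3 had 10 counts in KI3 and 7 in WT3, and 1 in WT1 and 0 in KI2. The antisense gene Gm26793 covers 24.9% of the exon bases of Fgf15 on the other strand and had 16 counts in KI3, 18 in WT3, 5 in KI2 and 3 in WT1.

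The library with the highest Fgf15 was also the one with the most choroid plexus and hem RNA. Ttr, the most abundant choroid plexus gene, had 956 counts in KI3 and 116 in KI2, and 0 and 4 in WT1 and WT3. The summed level of 9 ventral telencephalon genes was 246.5 CPM in WT1 and 310.7 in WT3, against 239.3 in KI2 and 252.0 in KI3. Of these genes, 7 had negative and 2 had positive log2 fold changes, and none was called. Dlx2 had 679 and 862 counts in WT mice and 437 and 609 in cKI f/+ mice. Nkx2-1, a scarce gene, went the other way, with 6 and 3 counts in WT mice and 19 and 17 in cKI f/+ mice. The part of these tissues in the value of Fgf15 was not tested. In bulk tissue, fewer cells of a type and less RNA per cell cannot be told apart.

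**Figure D2:**
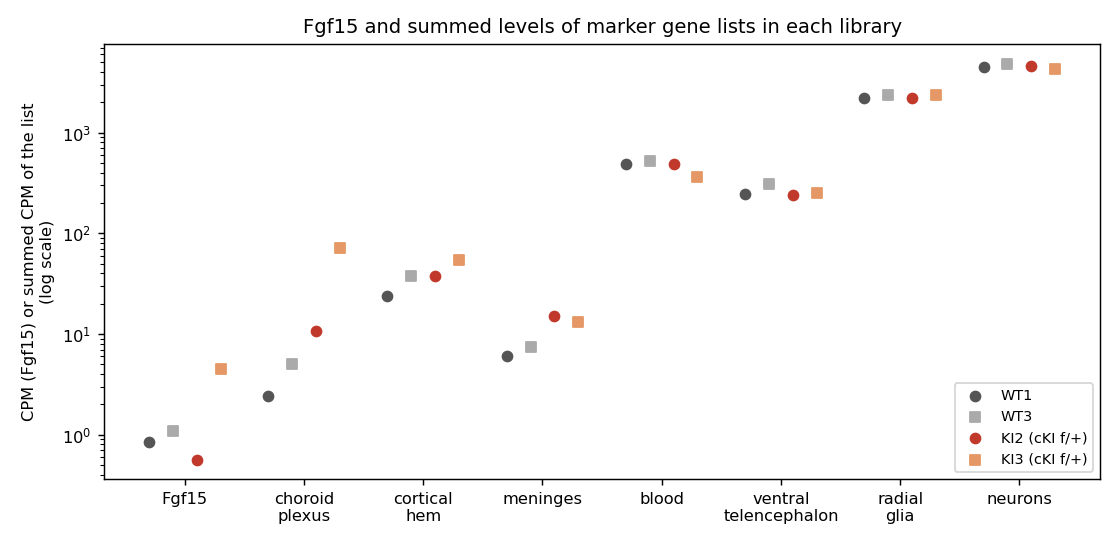
CPM of Fgf15 and summed CPM of marker gene lists (vertical axis, logarithmic) in each of the 4 libraries. KI3 holds the highest point for Fgf15, at 4.53 CPM, and for the choroid plexus list, at 70.8 CPM, whereas the radial glia and neuron lists lie close together in all libraries.

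The 4 FGF homologous factors split into an abundant and a scarce pair. Fgf11 was at 58.0 and 57.5 CPM in WT mice and at 62.9 and 59.2 CPM in cKI f/+ mice, and Fgf13, which lies on chromosome X, at 62.0 and 65.1 CPM in WT mice and 61.3 and 65.4 CPM in cKI f/+ mice. The Fgf13 values interleaved between the groups although Xist separated them. Fgf12 was between 4.09 and 5.62 CPM and Fgf14 between 2.32 and 3.44 CPM. The log2 fold changes were 0.09 for Fgf11, 0.06 for Fgf12, 0.00 for Fgf13 and -0.15 for Fgf14. None of the 4 had a 95% interval that left out 0, and the widest, of Fgf14, ran from -0.77 to 0.48 on the log2 scale.

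To ask whether the pathway differs between genotypes, edgeR's quasi-likelihood test was fitted to all genes that passed an expression filter, among them 26 of the 33. None of the 26 was called at a Benjamini-Hochberg adjusted p under 0.05. Of all 15786 tested genes, 0.12% were called, with 0.0697% on the higher and 0.0507% on the lower side in cKI f/+ mice. The lowest adjusted p among the 26 was 0.969 in edgeR's test. At an unadjusted p under 0.05, 2 of the 26 passed, Etv1 on the lower and Fgfr3 on the higher side, beside 4.6% of all tested genes (2.26% higher and 2.34% lower). DESeq2 also called 0 of the members and had the same 2 at an unadjusted p under 0.05. Leaving out 1 library moved this count of 2 to between 1 and 6. Without KI2 it was 6, with Fgf15, Etv5, Dusp6, Fgfr3, Fgf9 and Etv4, and Etv1 was at an unadjusted p of 0.0508 in edgeR's test. Without KI3 it was 1, Etv1, and Fgfr3 was at an unadjusted p of 0.118 in edgeR's test. Without WT3 it was 4, with Etv1, Etv5, Fgfr3 and Spry1. The median log2 fold change of the 26 genes was -0.02, and 13 were positive and 13 negative. Over all tested genes the median was 0.00 and 51.2% were positive. Both cKI f/+ libraries lay on one side of both WT libraries for 9 of the 26 genes (34.6%), 3 above and 6 below, beside 33.9% of all tested genes (16% above and 18% below). The members' shares of separated groups and of positive signs are near those of all genes. An exact two-sided permutation test of 2 libraries against 2 cannot give a p below 0.333.

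**Figure D3:**
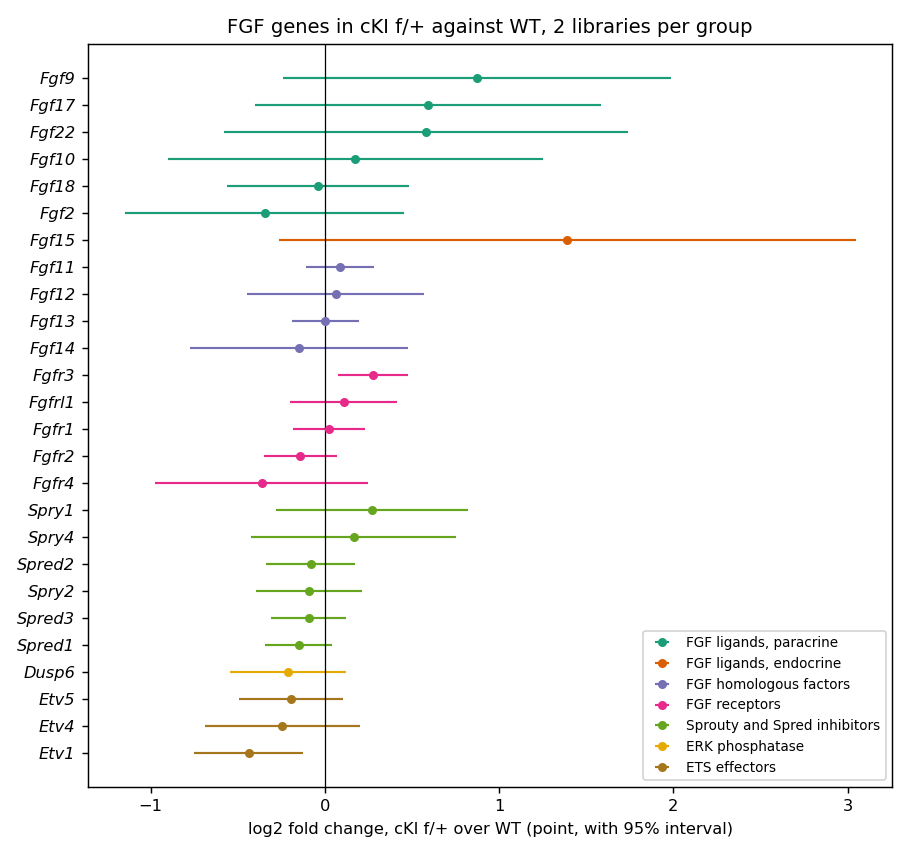
Log2 fold change of the 26 tested genes in cKI f/+ mice over WT mice (horizontal axis), with bars for the 95% interval from edgeR's quasi-likelihood fit of 2 libraries per group. Intervals of 24 genes include 0, those of Etv1 and Fgfr3 do not, and scarce ligands have the widest bars.

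How large a change could have gone unseen differed between roles. For 20 of the 26 genes the 95% interval lay between -1 and 1 on the log2 scale, which leaves out a doubling or halving between these groups. The intervals bound the difference between the groups, in which genotype, embryo sex and tissue content are not separated. The other 6 were the ligands Fgf2, Fgf9, Fgf10, Fgf15, Fgf17 and Fgf22. The standard error ranged from 0.09 for abundant genes to 0.74 for Fgf15.

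Among the receptors, Fgfr3 had the lowest unadjusted p. Fgfr3 lies on chromosome 5 of GRCm38 from 33721674 to 33737068 and encodes a receptor of cortical progenitors that restrains bone growth elsewhere. It was at 136.2 CPM in WT1 and 152.3 in WT3, and at 165.4 in KI2 and 182.6 in KI3. Both cKI f/+ values lay above both WT values, with group means of 144.3 ± 11.4 CPM (SD) in WT and 174.0 ± 12.2 CPM in cKI f/+ mice. This is a log2 fold change of 0.28 (standard error 0.09, 95% interval 0.08 to 0.47), with an unadjusted p of 0.0118 and an adjusted p of 0.969 from edgeR's quasi-likelihood test. It was not called. As each library was left out, the log2 fold change of Fgfr3 ran from 0.20 to 0.36. Its CPM rose in the order WT1, WT3, KI2 and KI3, which is also the order of the choroid plexus and hem sums. The part of that tissue in the value of Fgfr3 was not tested. G630022F23Rik overlaps 13.9% of the exon bases of Fgfr3 on the opposite strand, with 50 to 65 counts per library.

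The other receptors gave smaller or less even differences. Fgfr1, a receptor for Fgf2, was at 210.0 and 199.4 CPM in WT mice and at 222.3 and 191.6 CPM in cKI f/+ mice. The cKI f/+ libraries of Fgfr1 lay on either side of both WT libraries, and the 95% interval of its log2 fold change ran from -0.18 to 0.23. Fgfr2 was at 70.3 and 63.6 CPM in WT mice and at 63.2 and 57.7 CPM in cKI f/+ mice, a log2 fold change of -0.14 (95% interval -0.35 to 0.07). The groups did not overlap for Fgfr2, but KI2 and WT3 differed by less than the libraries of either group. Fgfr4, a receptor of liver and muscle, stood at 3.41 and 4.53 CPM in WT mice and 3.61 and 2.54 in cKI f/+ mice. Fgfrl1, a receptor without a kinase domain, stood at 22.7 and 21.6 CPM in WT mice and at 20.7 and 26.8 in cKI f/+ mice. Their log2 fold changes were -0.36 for Fgfr4 (95% interval -0.97 to 0.25) and 0.11 for Fgfrl1 (-0.20 to 0.41), with overlapping groups.

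Expressed as shares of the 4 kinase receptors per kilobase within a library, Fgfr3 held 39.6% in WT1, 43.5% in WT3, 43.8% in KI2 and 49.8% in KI3. Fgfr1 held 44.2%, 41.3%, 42.7% and 37.9% in the same order. Fgfr1 thus had the larger share in WT1 and the smaller share in the other libraries. Fgfr2 held between 10.9% and 14.2%, and Fgfr4 between 1.40% and 2.62%. With the longest transcript as the length, Fgfr3 held 35.4%, 39.4%, 39.6% and 45.4%, and Fgfr1 held 46.0%, 43.4%, 44.8% and 40.1%, so that KI3 alone had more Fgfr3 than Fgfr1.

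**Figure D4:**
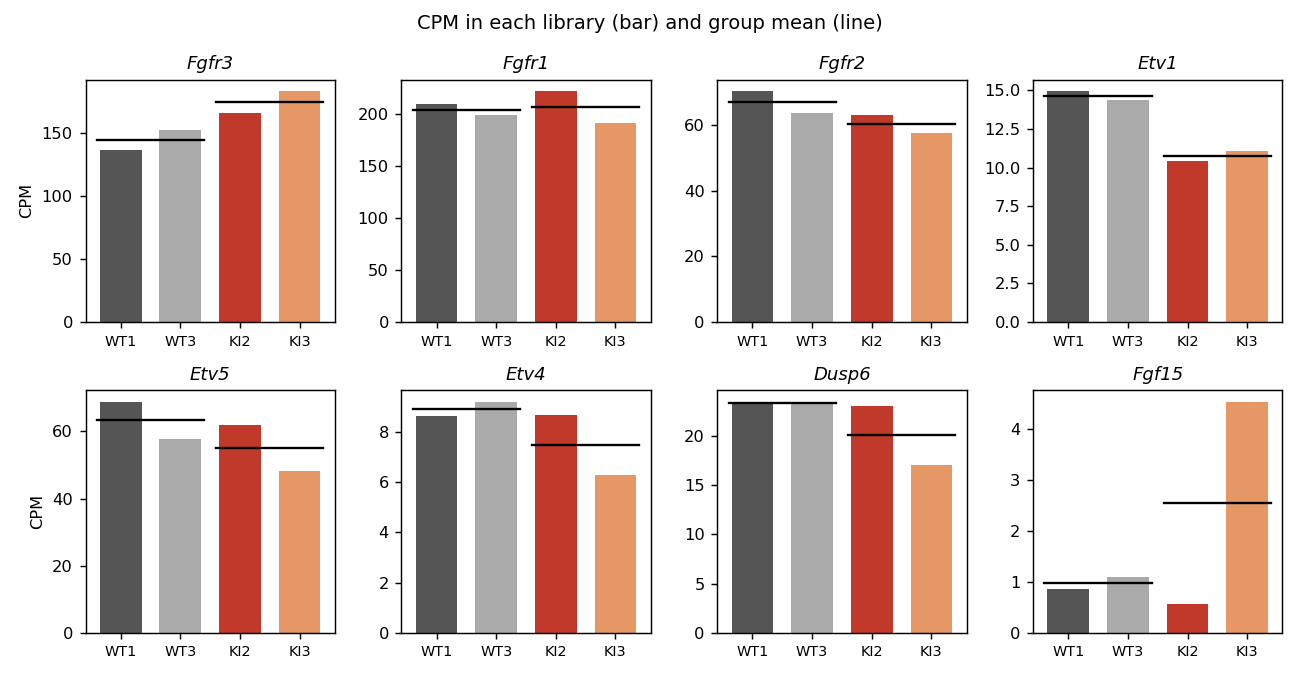
CPM (vertical axis of each panel, from 0) of 8 genes in the 4 libraries, with a bar for each library and a line at each group mean. Fgfr3 and Etv1 separate the groups, whereas Etv5, Etv4 and Dusp6 have their lowest bar in KI3 and Fgf15 has its highest bar there.

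The ETS factors of the Pea3 group, which carry out much of the FGF response in the nucleus, all had negative log2 fold changes. Etv1, on chromosome 12 from 38779380 to 38870484, also marks neurons of layer V. It was at 14.9 CPM in WT1 and 14.3 in WT3, and at 10.4 in KI2 and 11.1 in KI3. Both cKI f/+ libraries lay below both WT libraries, with group means of 14.6 ± 0.411 CPM (SD) and 10.8 ± 0.469 CPM. This is a log2 fold change of -0.44 (standard error 0.14, 95% interval -0.75 to -0.13), with an unadjusted p of 0.0110 and an adjusted p of 0.969 in edgeR's quasi-likelihood test. Etv1 was not called either. Etv5 was at 68.7 and 57.9 CPM in WT mice and at 61.9 and 48.3 CPM in cKI f/+ mice, and Etv4 at 8.63 and 9.18 CPM in WT mice and 8.68 and 6.29 CPM in cKI f/+ mice. For both genes KI2 lay between the WT libraries and KI3 below them. The log2 fold changes were -0.19 for Etv5 (95% interval -0.49 to 0.10) and -0.24 for Etv4 (-0.69 to 0.20).

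Dusp6, which removes the activating phosphates from ERK, had a like pattern. It was at 23.2 CPM in WT1, 23.4 in WT3, 23.0 in KI2 and 17.1 in KI3, with a log2 fold change of -0.21 (95% interval -0.55 to 0.12). KI2 lay just below both WT libraries and KI3 well below the other libraries. Without KI3 the log2 fold changes of Dusp6, Etv4 and Etv5 were -0.01, -0.03 and -0.03. Without KI2 they were -0.46, -0.51 and -0.40, with adjusted p-values of 0.671, 0.855 and 0.637 in edgeR's test. Etv5 also came to -0.06 without WT1, its highest library. The differences in these 3 genes therefore rested largely on KI3, the library with the most choroid plexus and hem RNA, and the part of that tissue was not tested. Etv1 did not share this dependence, with log2 fold changes from -0.48 to -0.41 as each library was left out.

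The Sprouty genes, which block signaling between the receptor and Ras or Raf, were at low to moderate level. Spry2 was at 14.1 and 15.8 CPM in WT mice and at 14.3 and 13.6 CPM in cKI f/+ mice. Spry1 was at 4.66 and 6.94 CPM in WT mice and 5.86 and 8.06 CPM in cKI f/+ mice. Spry4 was at 3.12 and 2.53 CPM in WT mice and 3.50 and 2.81 CPM in cKI f/+ mice. The groups overlapped for each of the 3, with log2 fold changes of -0.09, 0.27 and 0.16. Spry1 had KI3 as its highest library, opposite to Dusp6, Etv4 and Etv5.

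The Spred genes, which recruit neurofibromin to the membrane to switch off Ras, were more abundant. Spred1 was at 61.5 and 65.1 CPM in WT mice and at 57.6 and 56.2 CPM in cKI f/+ mice, with a log2 fold change of -0.15 (95% interval -0.34 to 0.04). Spred3 was at 34.1 and 35.4 CPM in WT mice and at 31.9 and 33.1 CPM in cKI f/+ mice. The groups did not overlap for Spred1 and Spred3, and neither was called. Spred2 was at 71.7 and 60.0 CPM in WT mice and at 66.6 and 57.4 CPM in cKI f/+ mice, with interleaved values. The log2 fold changes were -0.09 for Spred3 (95% interval -0.31 to 0.12) and -0.08 for Spred2 (-0.34 to 0.17).

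Over the 26 tested genes, KI3 held the lowest CPM for 13, KI2 and WT1 for 5 each and WT3 for 3. Among all tested genes the lowest value was in KI3 for 24.7%, in KI2 for 23.7%, in WT1 for 27.4% and in WT3 for 24.2%. The highest CPM was in WT3 for 9, in KI2 for 7, in KI3 for 6 and in WT1 for 4 of the 26, where the shares over all tested genes were 26.2%, 18.9%, 27.6% and 27.3%.

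**Figure D5:**
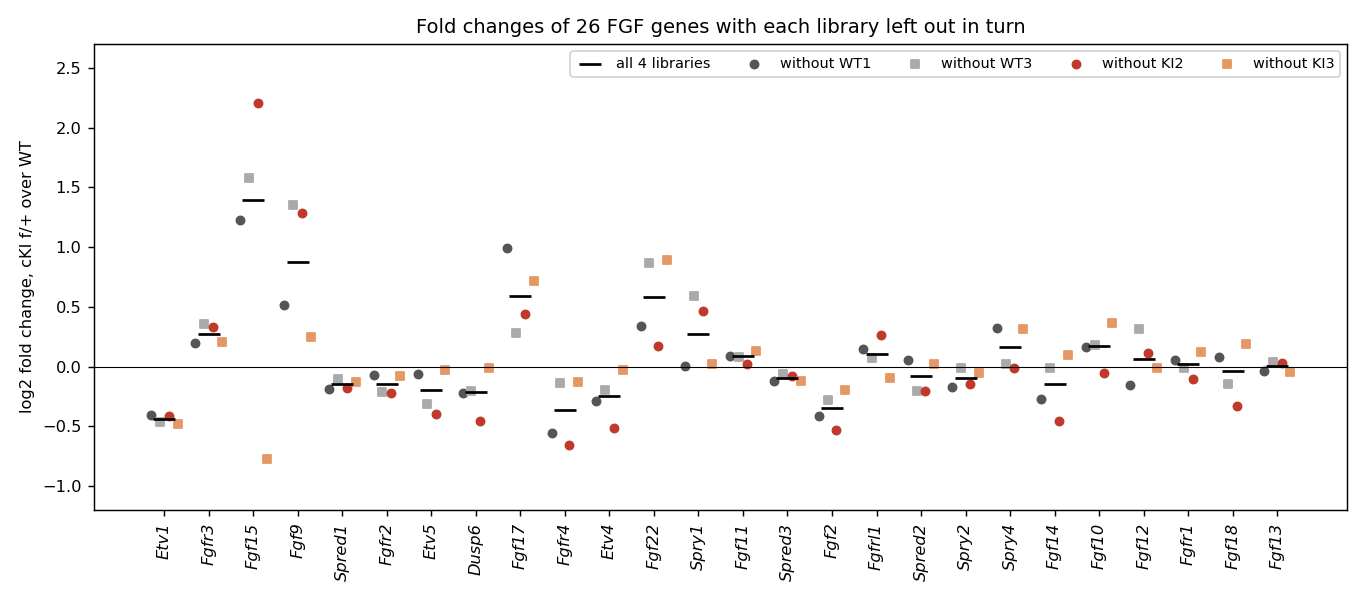
Log2 fold change in cKI f/+ mice over WT mice (vertical axis) of the 26 genes, ordered by p-value, with all libraries (dash) and with each library left out in turn (points). Etv1 stays between -0.48 and -0.41 and Fgfr3 between 0.20 and 0.36, while Fgf15 moves from -0.77 without KI3 to 2.20 without KI2.

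Other genes of the pathway were grouped in 4 lists of 63 genes, of which 60 were tested. None of the 60 was called in edgeR's test in either direction, and 5 had an unadjusted p under 0.05, beside 0.12% and 4.6% of all tested genes. Of the coreceptors and matrix partners, 17 of 19 were tested, with a median log2 fold change of 0.00. Gpc1, a heparan sulfate carrier at the cell surface, had the highest level of this list at 63.4 CPM per kilobase. Flrt2, a membrane partner of FGF receptors and of migrating neurons, had the lowest p, with a log2 fold change of -0.21 (unadjusted p of 0.0442 in edgeR's test). The gene of lowest p in the other direction was Hs2st1, an enzyme of heparan sulfate, at 0.13. Klotho proteins, the coreceptors of endocrine FGFs, were scarce, with at most 2 counts of Kl and between 5 and 16 of Klb.

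All 20 genes of the signal relay from receptor to ERK were tested, and the median log2 fold change was 0.01. The adaptor Grb2 had the highest level at 77.3 CPM per kilobase. The kinase Braf had a log2 fold change of -0.21, with an unadjusted p of 0.0468 in edgeR's test, and both cKI f/+ libraries below both WT libraries. Frs3, a docking protein of the receptors, had the lowest p on the other side, with a log2 fold change of 0.20.

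All 12 other brakes were tested, with a median log2 fold change of -0.0037. Dusp4, a nuclear ERK phosphatase, was at 83.8 and 91.1 CPM in WT mice and at 106.4 and 110.3 CPM in cKI f/+ mice, a log2 fold change of 0.31. Its unadjusted p was 0.00325 and its adjusted p 0.667 in edgeR's test, so it was not called. It lay above WT in both cKI f/+ libraries, opposite in sign to Dusp6. Rasa1, which switches off Ras, had the lowest p in the other direction at -0.12, and Pea15a, which holds ERK in the cytoplasm, the highest level at 133.2 CPM per kilobase.

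Of 12 ERK response genes, 11 were tested, with a median log2 fold change of -0.04. Ier2, an immediate early gene, was at 34.9 and 32.5 CPM in WT mice and at 42.1 and 42.9 CPM in cKI f/+ mice, a log2 fold change of 0.34 (adjusted p of 0.824 in edgeR's test). Myc had the lowest p on the other side, with a log2 fold change of -0.25. Ccnd1, on chromosome 7 near Fgf15 and Fgf3, had a log2 fold change of -0.10, with KI2 lowest and WT1 highest.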

How the data were processed

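The deposited table holds read counts for each gene in 4 libraries, which the authors made from E15 telencephalic tissue and did not normalize. The submitters' processing notes name Bowtie2 2.2.3, TopHat2 2.0.12, HTSeq 0.6.0 and mm9. Gene positions in the table match GRCm38 for 24485 of 26433 genes and 28 of 33 members (GENCODE M21), so coordinates are given in GRCm38. Columns name a genotype, not a single labelled sample. The table also holds the authors' mean normalized signal, fold change as ratio and log2, p-value and adjusted p-value, which the authors made and which were not used.

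R 4.3.3 and edgeR 4.0.16 were used. The default expression filter kept 15786 genes, TMM was applied, and the quasi-likelihood test was adjusted by Benjamini-Hochberg at 0.05. The standard error is the log2 fold change divided by the square root of F. Alternatives were other normalizations, edgeR's likelihood ratio test, DESeq2 1.42.0, other filters, leaving out chromosomes X and Y, and omitting each library in turn. Named genes are all members and, of each pathway list, called genes, otherwise the lowest p in each direction and the highest level. Braf, Ccnd1, Kl, Klb and the genes overlapping members were named after their values were seen, and some genes that the rule would name are not reported here. Members and lists were chosen with earlier results of these data known.

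The study's methods define biological replicates as different embryos, but no label ties a library to an embryo or says whether embryos were pooled, so p-values measure the spread between these libraries. Total counts per library, which set the counting precision, are given with the results. The libraries of a group were not copies, with a chi-square per degree of freedom of 5.63 for cKI f/+ and 7.49 for WT. The labels describe triplicates, and 2 libraries per group were analysed here.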

Additional observations from a re-analysis of the deposited data

How the results depend on the processing

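No member was called with all libraries under any of 8 other fits. At an unadjusted p under 0.05 the count of members was 2, Etv1 and Fgfr3, and 1 to 6 without 1 library. The count called with each library left out ran from 0 to 1, the call being Fgf15 without KI2 (log2 fold change 2.20, adjusted p of 0.0112 from edgeR, in which the lone library is assumed to vary like the other group). Fits without 1 library gave Fgf15 from -0.77 to 2.20. Over all genes, 19 were called, against 54 by likelihood ratio, 11 when chromosomes X and Y were dropped, 4 for a minimum of 10 counts per library, 726 at an unadjusted p under 0.05 and 46 to 71 without 1 library. The cause was not tested, except that the filter and the removal of chromosomes leave fewer genes. For members, 287 of 308 values kept their sign and side of the threshold. With all libraries only Fgf13 changed sign, at -0.00101 with DESeq2 size factors in edgeR, -0.00436 with library totals, -0.000451 with DESeq2, -0.00466 without a filter and -0.00702 with at least 10 counts. Without 1 library, ranges that crossed 0 were -0.058 to 0.36 for Fgf10, -0.15 to 0.31 for Fgf12, -0.045 to 0.039 for Fgf13, -0.46 to 0.10 for Fgf14, -0.33 to 0.19 for Fgf18, -0.11 to 0.12 for Fgfr1, -0.092 to 0.27 for Fgfrl1, -0.21 to 0.053 for Spred2 and -0.015 to 0.33 for Spry4. With the longest transcript as length, 10 of 33 levels moved by more than their spread. No paired analysis was possible because no replicate number in the labels occurs in both groups. At this depth 7 members had too few reads to be tested.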
